A study of Mus musculus with 18 samples.

Results

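Binding of the transcription factor ATF1 to DNA that carried 5-methylcytosine (5mC) was compared with its binding to unmodified DNA on protein binding microarrays, slides of double-stranded DNA probes on which the protein that binds is read by a fluorescent label. The comparison used 4 of the 18 arrays in the series, picked by their labels for protein and DNA: 2 arrays of ATF1 on unmodified cytosine and 2 on 5mC. The other 2 ATF1 arrays, on 5-hydroxymethylcytosine, entered only the estimate of spread, so that the spread came from 6 ATF1 arrays. On every array the protein was the DNA-binding domain of mouse ATF1 with a short native stretch on each side, with glutathione S-transferase as its tag, expressed in a cell-free system. The groups differed only in the cytosine supplied when the printed single strand was copied: the copied strand carried 5mC at every C, not only at CpG, and the printed strand kept plain cytosine, so the methylated DNA was modified on 1 strand. The binding domain alone was assayed on naked DNA, without the rest of the protein, its partners or chromatin. No source states that replicate arrays used separate batches of protein, so the p-values below reflect array-to-array spread that may be technical.

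ATF1 is a basic leucine zipper (bZIP) protein of the CREB family. It binds as a dimer to the cAMP response element (CRE), a palindrome in which each monomer reads the half-site TGAC and the dimer covers a central CpG. The C/EBP proteins are bZIP proteins that prefer a palindrome of the half-site GCAA, and a site that joins TGAC to GCAA is called the CRE-C/EBP chimera here. CpG is the main target of DNA methylation in mammals, which is why CRE sites are a natural place to ask how methylation bears on binding. The title of the series asks whether modified cytosine enhances binding of CREB1, the closest relative of ATF1, to the C/EBP half-site.

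The sites the results turn on are shown first, each as it reads 5′ to 3′ on the strand that carried 5mC, with CpG in capitals. They are the CRE, a half-site variant of it, the site of the PAR bZIP proteins, the chimera in both orientations, the C/EBP palindrome, a composite without CpG, and the 8-mers with the largest rise and the largest fall as measured.
CRE: tgaCGtca
CRE half-site followed by AA: tgaCGtaa
PAR bZIP site: ttaCGtaa
Chimera, both half-sites on the modified strand: tgaCGcaa
Chimera, the same site turned around: ttgCGtca
C/EBP palindrome: ttgCGcaa
CpG-free composite: tgatgcaa
Largest rise: taCGcaat
Largest measured fall: taCGtcac

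Each array held 40330 probes with 35 variable bases, and 4 probes show what those sites look like on the array. The first 3 are the probes of median change among those that held the CRE, the 8-mer with the largest rise and the chimera, and the fourth is one of the probes at the top of the scale on both unmodified arrays. They are given on the copied strand, with the site in capitals.
Probe with the CRE: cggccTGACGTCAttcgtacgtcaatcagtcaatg
Probe with the largest rise: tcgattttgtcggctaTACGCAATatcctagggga
Probe with the chimera: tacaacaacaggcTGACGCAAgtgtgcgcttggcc
Probe saturated on both unmodified arrays: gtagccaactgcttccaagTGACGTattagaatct

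The signal of the CRE probe was 56445 and 63338 on the 2 unmodified arrays and 16547 and 15870 on the 2 5mC arrays. The probe with the largest-rise 8-mer went the other way, from 6096 and 5931 to 22595 and 25282. On the chimera probe the signals were 6081 and 8391 against 12068 and 15041, a log2 change of 0.50 relative to the array median that missed the threshold (adjusted p = 0.52, limma on log2 signal). The saturated probe read 65528 on both unmodified arrays, the top of the scanner's scale, and 24311 and 14161 on 5mC.

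The median probe signal was 2639 and 3291 on the unmodified arrays and 4316 and 4286 on the 5mC arrays, with signal over local background of 3.22, 3.43, 6.16 and 7.46 in the same order. The typical probe was therefore brighter on 5mC, while the top 8-mers scored lower there. The authors' z-score, 1 value per 8-mer and array on a linear scale with a median near 0, is the unit used unless another is named. A z-score is relative to its own array, and on the unmodified arrays the highest reached 123 and 95.1, against 45.1 and 44.0 on 5mC. Scores of the 2 unmodified arrays correlated across 8-mers with r = 0.951 and those of the 2 5mC arrays with r = 0.878, values across 8-mers that share probes and are not independent. With 2 arrays per group no exact permutation test can pass 0.05, so the adjusted p-values come from limma fitted over all 65121 8-mers tested, each carried by a median of 17 probes.

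In that fit 5124 of 65121 8-mers (7.87%) passed an adjusted p of 0.05, of which 1888 (2.9%) were higher on 5mC and 3236 (4.97%) lower. The share of these calls that were higher was 36.8%, and it was 47.7% when the z-scores were first quantile normalized, which called 1439 higher and 1580 lower. Leaving out any 1 of the 4 arrays reduced the total to between 2062 and 2370. The fit of all 18 arrays called 2118, and the fit of the 4 arrays alone called 8780.

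The CRE lost most of its binding on 5mC. The palindrome TGACGTCA scored 121 and 89.7 on the unmodified arrays and 6.69 and 8.59 on the 5mC arrays, a difference of -97.95 (SE 6.83, adjusted p = 3.10e-06). The median signal of its 19 probes was 27.3 times the array median on unmodified DNA, as the mean of 2 arrays, and 2.61 times on 5mC. The groups were far apart, yet on 5mC the site still scored above 4, the value used here to call an 8-mer bound. Saturation limits the size: 11 and 12 of the 19 probes were saturated on the unmodified arrays and 0 and 1 on 5mC, so the unmodified level is a lower bound and so is the fall.

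All 3 lists built around the CRE fell in full. The 15 8-mers with the CRE core (TGACGTC on either strand) had a mean z-score of 39.6 ± 4.09 (SD, n = 2 arrays) on unmodified DNA and 2.89 ± 0.229 on 5mC, and 15 of 15 were lower. The half-site TGACGT outside that core gave 80 8-mers, of which 80 of 80 were lower, from 38.5 ± 1.98 to 3.12 ± 0.0591. The site of the PAR bZIP proteins (TTACGTA), a family that shares the central ACGT, fell in 15 of 15 8-mers, from 22.1 ± 0.629 to 2.94 ± 0.174. The median change of these lists was -34.49, -29.09 and -17.94, against -0.03 over all 8-mers. These counts were the same without any 1 of the 4 arrays, and with the spread of all 18 arrays they became 12, 65 and 7.

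The 10 largest measured falls were all at sites of these lists. TACGTCAC scored 122 and 95.1 on unmodified DNA, and 2.21 and 3.08 on 5mC (difference -105.7, adjusted p = 9.00e-07). ACGTCACA, the same site shifted by a base, went from 123 and 92.5 to 2.93 and 3.84. Since saturation caps these 8-mers and TGACGTCA, their order on unmodified DNA cannot be read. TGACGTAA, which carries a full TGAC and an imperfect second half-site, kept more: it went from 103 and 93.8 to 12.2 and 12.0. TGACGTGG, where the second half-site resembles an E-box, went from 58.5 and 62.9 to 5.71 and 5.29. The palindromic PAR site TTACGTAA went from 37.9 and 33.2 to 5.66 and 4.67.

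In 4 8-mers at least 50% of the probes were saturated on an unmodified array: TGACGTCA, TACGTCAC, ACGTCACA and GTGACGTA. TGACGTCA passed that mark on both unmodified arrays, and the others on 1. In all, 2099 8-mers had at least 1 saturated probe on an unmodified array, and how far such probes lowered a score is not known. When the 8-mers were rescored as log2 medians of unsaturated probes only, 5345 changed, and every member of the CRE core, half-site and PAR lists was still lower.

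The 24 single-base changes of the CRE all scored below it on unmodified DNA by their mean. The lowest were 2 changes of the central CpG, TGAAGTCA at 1.54 and 1.72 and TGACCTCA at 2.58 and 2.52. The highest were TGACGTAA, then its reverse complement TTACGTCA at 53.7 and 58.9, and CGACGTCA, changed at its first base, at 37.9 and 47.0. On 5mC 22 of the 24 were lower. TGAAGTCA (adjusted p = 0.779) and TGAGGTCA (adjusted p = 0.310), which scored low in both groups, missed the threshold.

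Sites without CpG also fell. TGATGTCA, whose modified strand has no CpG and a C only at its seventh base, went from 17.2 and 16.2 to 0.998 and 0.490 (adjusted p = 3.71e-06). Its reverse complement, TGACATCA, went from 12.4 and 9.07 to 0.364 and 1.08 (adjusted p = 8.17e-05). TGACTTCA, also without CpG, fell from 3.40 and 4.14 to 0.449 and 0.719 (adjusted p = 0.00525).

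**Figure D1:**
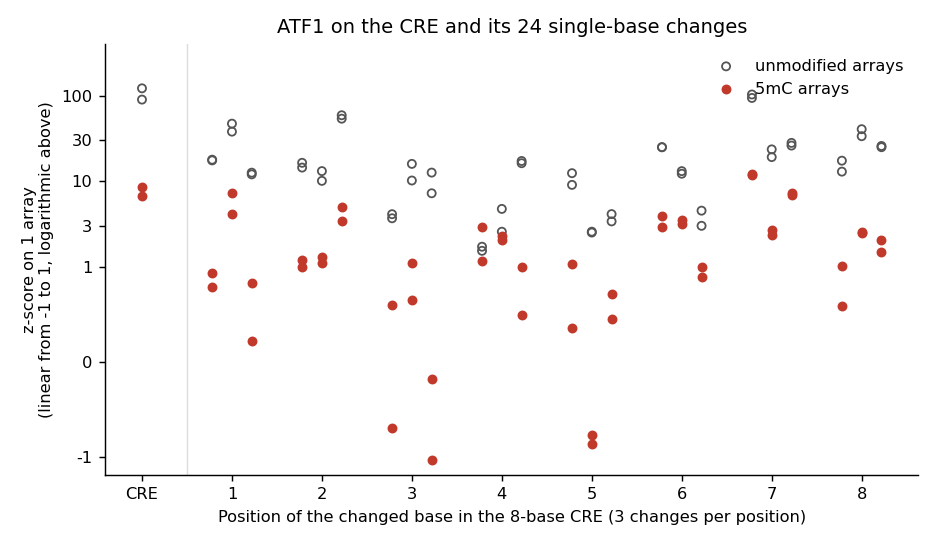
z-scores (vertical axis, linear from -1 to 1 and logarithmic above) of the CRE and of its 24 single-base changes, 3 at each position (horizontal axis), on the 2 unmodified arrays (open circles) and the 2 5mC arrays (filled circles). The filled circles lie below the open ones everywhere except at 1 change at position 4, TGAAGTCA, where they overlap.

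Other sites with the central ACGT started lower. Of 1120 8-mers with ACGT outside the lists above and the E-box, 649 were lower and 1 higher, with a mean of 4.30 ± 0.0048 on unmodified DNA and 1.02 ± 0.0188 on 5mC. The E-box CACGTG, best known as a site of basic helix-loop-helix proteins, was lower in 26 of 48 8-mers, from 4.15 ± 0.0563 to 1.15 ± 0.186. Without any 1 array these counts were 352 to 452 for other ACGT sites and 14 to 17 for the E-box. CCACGTGG, an E-box palindrome, went from 2.77 and 2.73 to 0.297 and 0.646 (adjusted p = 0.0316).

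The half-site TGAC was also lower in 8-mers without CpG. Among 1692 8-mers that held TGAC on either strand and no CpG, 450 were lower and 5 higher, with a mean of 1.98 ± 0.0837 on unmodified DNA and 0.528 ± 0.0169 on 5mC. The list includes 8-mers with TGAC at an end, where the next base on a probe lies outside the 8-mer and can complete a CpG. The count lower was 194 to 281 without any 1 array and 210 after quantile normalization. Read by the next base, with TGAC on the modified strand, 233 of 256 8-mers with TGACG were lower, 104 of 256 with TGACA, 25 of 255 with TGACC and 34 of 256 with TGACT. These groups start from different levels, 18.0, 3.36, 1.02 and 1.24 on average on unmodified DNA, so the lower counts belong to the weaker sites. The AP-1 site TGACTCA, bound best by JUN and FOS proteins, scored 3.03 ± 0.557 on unmodified DNA over 16 8-mers and 0.845 ± 0.172 on 5mC, and 6 were lower. Its member TGACTCAT, at 3.20 and 4.39 against 2.72 and 0.889, missed the threshold (adjusted p = 0.114).

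Many 8-mers with the C/EBP half-site on the modified strand were bound more strongly on 5mC. Of the 1279 8-mers that held GCAA on the modified strand, 527 (41.2%) were higher on 5mC and 2 lower, the highest share among the 256 tetranucleotides. With GCAA on the unmodified strand, that is, TTGC on the modified one, 50 of 1278 (3.91%) were higher and 52 lower. The 10 largest rises all held GCAA on the modified strand, and in 9 of them a C stood before it, so that the site held a methylated CpG.

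The largest measured rise was at TACGCAAT, which went from 11.5 and 8.22 on unmodified DNA to 33.6 and 37.0 on 5mC, a difference of 25.47 (SE 2.91, adjusted p = 0.000157). The median signal of its 15 probes rose from 3.46 to 10.1 times the array median, and 6 and 7 of the probes were saturated on 5mC. CTACGCAA went from 10.8 and 6.19 to 31.9 and 33.8 (adjusted p = 9.55e-05), with 4 and 5 of 16 probes saturated on 5mC. CCCGCAAT started lower: it scored 1.73 and 0.376 on unmodified DNA, below the value used to call an 8-mer bound, and 21.3 and 26.2 on 5mC (adjusted p = 7.62e-06), with no probe saturated. CGACGCAA, which differs from the chimera in its first base, rose from 5.38 and 4.30 to 23.97 and 30.9 (adjusted p = 6.81e-05). How far saturated probes lowered these scores on 5mC is not known, so the order of the rises cannot be read. By the median log2 change of their probes the order differed: 3.06 at CCCGCAAT, 2.54 at CGACGCAA, 2.13 at CTACGCAA and 1.58 at TACGCAAT.

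The gain ranked by the base before GCAA. With C before it, 197 of 256 8-mers were higher and 0 lower, and the mean went from 1.48 ± 0.132 to 7.06 ± 0.465. T before it gave 143 of 256, from 0.492 ± 0.0736 to 3.55 ± 0.231. A before it gave 53 higher and 2 lower, from 0.168 ± 0.0532 to 1.29 ± 0.0394. G before it gave 31 higher, from -0.0099 ± 0.0531 to 0.915 ± 0.148. The difference between these contexts was not itself tested, and the groups share probes with their neighbours.

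The gain also ranked by the base after CGCAA. All 48 8-mers with CGCAAT were higher, from 1.96 ± 0.0653 to 13.1 ± 1.08, the pattern that TACGCAAT and CCCGCAAT belong to. With C after CGCAA 46 of 48 were higher, with G 36 and with A 19. On the other side, the dinucleotide GC before GCAA gave 40 of 48 higher, AC and CC 38 each, and TC 33. Among those that end in T, which form no CpG with GCAA, CT gave 34, AT 30, GT 26 and TT 17. The AC context held the strongest sites in both groups, with a mean of 4.54 ± 0.402 on unmodified DNA and 12.5 ± 0.779 on 5mC.

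The C/EBP palindrome itself was a modest site. TTGCGCAA scored 4.22 and 2.90 on unmodified DNA and 12.1 and 14.1 on 5mC, a rise of 9.53 (SE 1.22, adjusted p = 0.000382), and 10 of its 17 probes were higher one by one. Of the 15 8-mers with 7 bases of the palindrome 8 were higher and 0 lower, with a mean that went from 1.79 ± 0.27 to 6.39 ± 0.274. Of 7 pairs that are not the palindrome itself, 5 passed with the larger rise when the entire GCAA was on the modified strand and 1 with the smaller; without either unmodified array these counts were 3 and 0, and on the asinh of the z-score, which damps high values, 1 and 0. TGCGCAAT rose from 2.98 and 3.89 to 20.7 and 22.4, while its reverse complement ATTGCGCA stood at 3.47 and 5.33 against 2.43 and 3.65 (adjusted p = 0.429). The change of ATTGCGCA minus that of TGCGCAAT was -19.47 (SE 1.05, adjusted p = 5.26e-07). The pair that went the other way was TGCGCAAG, at 3.56 ± 1.51 on 5mC and not called, and CTTGCGCA, at 7.32 ± 0.0203 and higher (adjusted p = 0.000136).

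Sites without CpG also rose. The composite TGATGCAA, whose only C on the modified strand is the one inside GCAA, rose from 4.61 and 4.99 to 18.3 and 24.5 (adjusted p = 0.00654). TTATGCAA rose from 2.65 and 2.52 to 7.49 and 6.84 (adjusted p = 0.0176). The CpG-free composite list is named for its motif, and a base beside the motif can still form a CpG. Of the 15 8-mers of that list with the motif on the modified strand, 6 were higher and 0 lower, with a mean that went from 1.73 ± 0.0776 to 6.49 ± 0.396. Of these 6, CGATGCAA holds a CpG, and it went from 1.84 and 1.04 to 7.84 and 10.6 (adjusted p = 0.00118). With the motif on the unmodified strand 0 were higher and 6 lower, from 2.17 ± 0.223 to 0.319 ± 0.284. Without any 1 array the count higher was 3 to 5, and with the spread of all 18 arrays it was 0.

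The strand that carried the half-site divided the remaining 8-mers as well. CGCAA outside the chimera and the palindrome was higher in 185 of 239 8-mers when it lay on the modified strand, from 1.17 ± 0.0711 to 6.65 ± 0.454, and in 7 of 239 when it lay on the other, where 29 were lower. Without any 1 array the count of 185 became 139 to 167, and with all 18 arrays 81. GCAA with no C before it within the 8-mer, a list that includes 8-mers beginning with GCAA, was higher in 307 of 957 8-mers on the modified strand and in 22 of 956 on the other. Here leaving out any 1 array left between 114 and 173 of the 307, and the fit of all 18 arrays called 116.

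**Figure D2:**
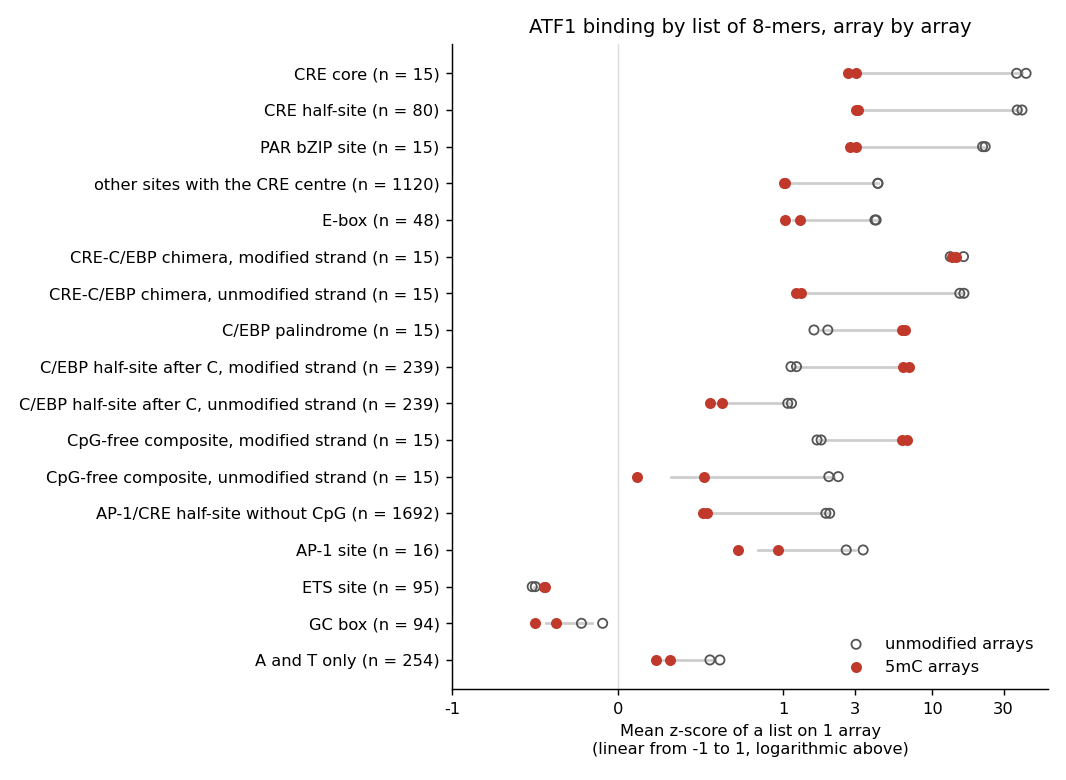
Mean z-score (horizontal axis, linear from -1 to 1 and logarithmic above) of the 8-mers of each list on each of the 2 unmodified arrays (open circles) and the 2 5mC arrays (filled circles), with the number of 8-mers in brackets. The CRE core, CRE half-site and PAR lists drop to means of 2.89 to 3.12 on 5mC, the lists with CGCAA or the CpG-free composite on the modified strand go to 6.65 and 6.49, and the chimera with its motif on the modified strand goes from 14.7 to 13.9.

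The chimera TGACGCAA was the best site on methylated DNA. It scored 45.1 and 44.0 on the 5mC arrays, the highest of all 8-mers on both, and 56.4 and 42.4 on the unmodified arrays. The groups overlapped, and the difference of -4.86 (SE 4.22) missed the threshold (adjusted p = 0.555). The median signal of its probes was 11.6 times the array median on unmodified DNA and 11.0 times on 5mC, with 3 probes of 17 saturated on each unmodified array and 5 and 6 on 5mC. The sign of this difference was not settled: it was 44.1 after quantile normalization (adjusted p = 4.67e-09), a scaling in which the top ranks of both groups get equal values, and 0.47 on the log2 scale without saturated probes (adjusted p = 0.032). Without the first unmodified array the z-score difference was 2.12 (adjusted p = 0.792).

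Turned around, the chimera lost its binding. TTGCGTCA is the same site with both half-sites on the unmodified strand, and it went from 29.3 and 25.1 to 3.40 and 2.57 (adjusted p = 6.68e-06). On 5mC the 2 orientations stood at 44.5 ± 0.813 and 2.99 ± 0.588 (SD, n = 2 arrays). Their changes differed by 19.4, which did not pass the test with the mean-variance trend used throughout (SE 42.96, adjusted p = 0.85) and passed without the trend (SE 2.58, adjusted p = 0.000855). In this fit the trend runs on the signed difference between orientations, averaged over arrays, and not on a level of binding. The call for this pair therefore rests on how the spread is moderated, and the values of the 4 arrays on each orientation are those given above.

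Members of the chimera list split by which half-site was complete. With the motif on the modified strand, 6 of 15 were higher and 4 lower, and the mean hardly moved, from 14.7 ± 2.12 to 13.9 ± 0.692. All 6 that rose held GACGCAA without the T of TGAC within the 8-mer, such as GACGCAAT, from 6.12 and 4.51 to 20.7 and 20.4 (adjusted p = 0.000119). The 4 that fell held TGACGCA without the last A of GCAA. They included GTGACGCA, from 54.5 and 40.0 to 19.5 and 24.6 (adjusted p = 0.00365), and ATGACGCA, from 46.6 and 38.7 to 26.6 and 16.3 (adjusted p = 0.00686). Without the first 5mC array 1 of the falls was called. With the motif on the unmodified strand 0 of 15 were higher and 13 lower, from 15.7 ± 0.708 to 1.26 ± 0.0774.

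Whether the strand decided the change was tested pair by pair, as the change of an 8-mer minus the change of its reverse complement. Of 32225 pairs, 1770 (5.49%) passed, and on the inverse hyperbolic sine of the z-scores, which damps large values, 554 did. On unmodified DNA neither strand carries 5mC, so a difference between orientations there does not involve 5mC. For CGCAA outside the named sites, 174 of 239 pairs passed, each with the larger rise when CGCAA was on the modified strand, and 68 passed on the damped scale. Their mean scores were 1.17 and 1.10 for the 2 orientations on unmodified DNA and 6.65 and 0.592 on 5mC. For the chimera list 14 of 15 pairs passed in the same direction (8 on the damped scale), and for the CpG-free composite 8 of 15 (8 on the damped scale, 5 without the first unmodified array). GCAA with no C before it within the 8-mer passed in 177 of 956 pairs in that direction and in 1 in the other, and leaving out any 1 array left 64 to 94 of the 177. In some chimera pairs, such as TGACGCAC and GTGCGTCA, both orientations fell, and the one with the motif on the modified strand fell less.

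Examples give the size of the strand difference, which also takes in any gap between the orientations on unmodified DNA. TACGCAAT rose by 25.5, while its reverse complement ATTGCGTA fell by 9.58, with means of 35.3 and 1.58 on 5mC. TGACGCAG and CTGCGTCA started at 10.7 and 29.2 and stood at 6.29 and 0.538 on 5mC (difference of the changes 24.22, SE 0.76, adjusted p = 3.80e-09). Both orientations of this pair went down, and much of the difference between their changes was the gap on unmodified DNA. ATGATGCA and TGCATCAT, without CpG, started at 4.07 and 6.00 and stood at 7.69 and 0.531 (difference 9.09, SE 1.05, adjusted p = 0.000197).

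CRE sites behaved otherwise. Of 40 pairs of the CRE half-site 31 passed, 12 with the smaller fall and 19 with the larger fall when TGACGT was on the modified strand. The split was 11 and 11 without the first 5mC array and 12 and 8 without the second. In all 31 the orientation that scored higher on unmodified DNA fell more, as both went to low values. On the damped scale 1 of the 40 passed. TGACGTAA and TTACGTCA, for instance, started at 98.4 and 56.3 and stood at 12.1 and 4.23 on 5mC (difference of the changes -34.21, adjusted p = 0.00753). On 5mC the orientation with TGACGT on the modified strand scored higher in 32 of 40 pairs, with a mean of 4.22 against 2.02, and on unmodified DNA in 25 of 40, with 42.5 against 34.4. In the other lists too, the orientation that scored higher on unmodified DNA had the lower change in part of the pairs that passed. These were 86 of 174 for CGCAA, 7 of 14 for the chimera and 6 of 8 for the CpG-free composite.

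**Figure D3:**
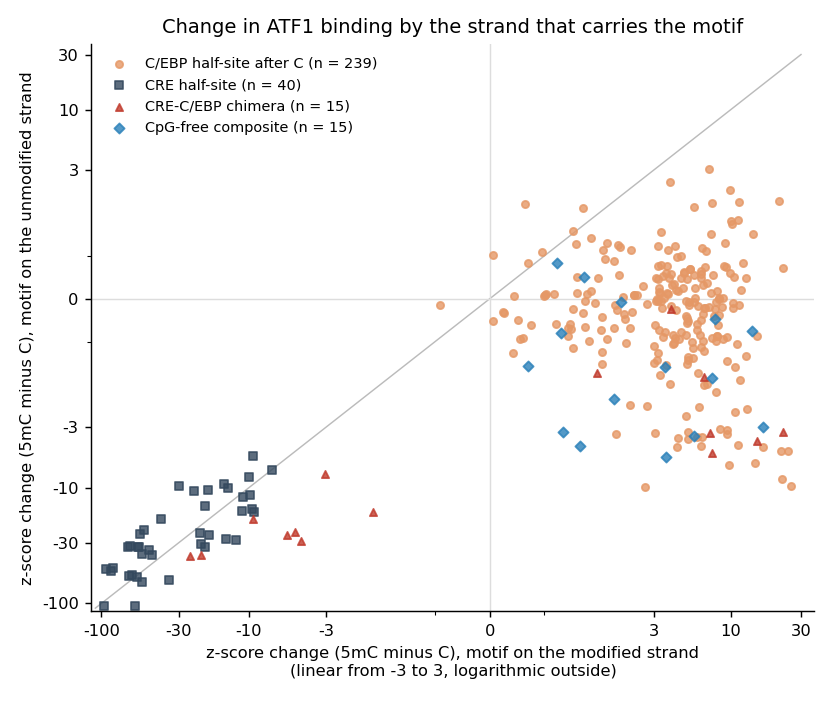
Change in z-score (5mC minus unmodified) of an 8-mer with the motif on the modified strand (horizontal axis) against that of its reverse complement (vertical axis), both linear from -3 to 3 and logarithmic outside, with the line of equal change. CRE half-site pairs lie along the line, while the pairs of the chimera and of the CpG-free composite lie to the right of it, as do 232 of 239 pairs of the C/EBP half-site after C.

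The set of bound 8-mers changed its make-up. At a z-score of 4 or more 1927 and 1953 8-mers were bound on the unmodified arrays and 754 and 834 on 5mC. On both arrays of a group these were 1550 and 557, and 185 were bound in both groups, which is 11.9% of the former and 33.2% of the latter. Of the 1550, 33.5% held ACGT and 1.48% held GCAA on the modified strand. Of the 557, 9.34% held ACGT and 44.9% held GCAA on the modified strand. GCAA on the unmodified strand was held by 1.35% of the former and 1.80% of the latter. Each of these tetranucleotides is found in 1.96% of all tested 8-mers.

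Other sites, which bZIP proteins are not known for, are given beside the 2.9% higher and 4.97% lower of all 8-mers. Of 94 8-mers with the GC box of the SP proteins 0 were higher and 3 lower (3.19%), and of 95 with the ETS site 0 were higher and 0 lower, by limma with the spread of 6 arrays. The fit of the 4 arrays alone called 5 higher and 7 lower for the GC box and 2 and 1 for the ETS site, with 8780 of 65121 called in all. At an unadjusted p under 0.05 the ETS counts were 8 higher and 3 lower. Of 254 8-mers of A and T alone, which cannot carry 5mC within them, 2 were higher and 3 lower, and TTAATTAA stood at 0.169 and 0.00723 against -0.216 and -0.477 (adjusted p = 0.61). Among the 6556 8-mers with no C on the modified strand 45 (0.686%) were higher and 129 (1.97%) lower, against the 2.9% and 4.97% of all 8-mers. With 1, 2, 3, 4 and 5 C on that strand the share higher was 1.62%, 2.83%, 4.16%, 5.89% and 6.37%, and with 6 and 7 C, over 171 and 9 8-mers, it was 2.34% and 0%. The share lower had no such order, at 6.14%, 6.28%, 4.07%, 2.54%, 2.58%, 10.5% and 44.4% from 1 to 7 C.

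Single probes gave a like picture at the strongest sites, on signal taken relative to the array median. After background correction, log2 and centring on the array median, 6160 of 40330 probes (15.3%) changed, 2500 (6.2%) higher and 3660 (9.08%) lower. Of the 572 probes with TGACGT on either strand 424 were lower and 2 higher, with a median log2 change of -2.36. Their median signal was 14263 and 17548 on the unmodified arrays and 6713 and 6515 on 5mC. Of the 4832 probes with ACGT on either strand 1251 were lower and 113 higher, with a median log2 change of -0.80. Their median raw signal, 4215 and 5351 on unmodified DNA and 5231 and 5066 on 5mC, did not separate the groups. Of the 1193 probes with CGCAA on the modified strand 423 were higher and 26 lower (median log2 change 1.14), and of the 1243 with it on the other strand 98 were higher and 137 lower (median -0.10). For TGACGCAA, 2 of 17 probes were higher and 5 lower with the site on the modified strand, and 0 and 13 of 18 with the site turned around. The median log2 changes were 0.50 and -1.85.

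Saturated probes were few, and on the unmodified arrays nearly all of them were of the CRE type. On the unmodified arrays 56 and 84 probes were saturated, 56 of them on both, and 54 of these 56 held TGACG on either strand and 48 TGACGT. On 5mC 18 probes were saturated on both arrays, of which 16 held CGCAA on the modified strand and all 18 GCAA. Of the 56, 51 were below saturation on both 5mC arrays, with a median signal of 16164 and 14800, and their signals there ran from 5378 to 44477 and from 3635 to 45510. All 51 were called lower relative to the array median. Another 3 were saturated on all 4 arrays and so have no measurable change, although the fit called them lower, since it centres each array on its median and that of the 5mC arrays was higher. The count of changed probes was 6046 without saturated probes, 2337 with plain subtraction of the local background and 1627 after quantile normalization.

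**Figure D4:**
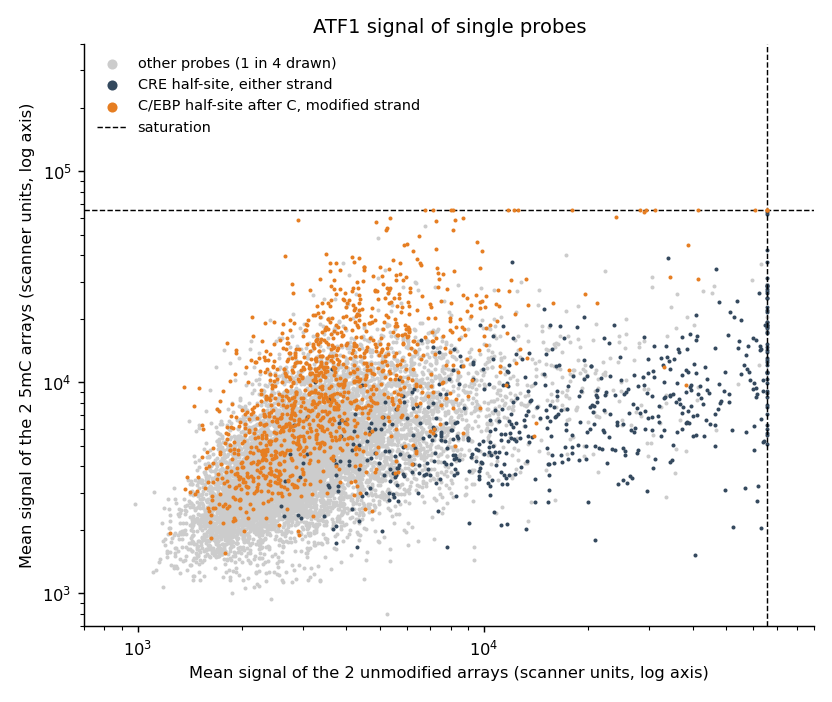
Mean signal of each probe on the 2 unmodified arrays (horizontal axis) and on the 2 5mC arrays (vertical axis), in scanner units on log axes, with dashed lines at saturation. Probes with a CRE half-site on either strand lie low and to the right, up to the saturation line, and probes with CGCAA on the modified strand and no CRE half-site lie high and to the left; 1 in 4 of the other unsaturated probes is drawn.

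The changes in ATF1 were also compared with those in CREB1, its closest relative on the arrays. The change in ATF1 minus the change in CREB1 was tested over the 8 arrays of both proteins, and 5 of 65121 8-mers passed (0.00768%), while 5013 had an unadjusted p under 0.05. In 4 of them (0.00614% of all) the fall was smaller in ATF1, and in 1 (0.00154%) it was larger. TGACGTGG fell by 55.2 in ATF1, and it fell by 113.7 in CREB1, a difference of 58.47 (95% interval 41.3 to 75.6, adjusted p = 0.0229). AGTGACGT, GATGACGT and TATGACGT, all with TGACGT at their end, differed by 54.1, 46.6 and 43.7. In each, CREB1 also scored higher on unmodified DNA, 123 against 60.7 for TGACGTGG. On 5mC TGACGTGG was low in both proteins, at 8.92 in CREB1 and 5.50 in ATF1, so the difference goes with the higher CREB1 level on unmodified DNA. Each also held saturated probes on unmodified arrays of both proteins, so the levels there are lower bounds. Saturated probes at AGTGACGT, GATGACGT and TATGACGT were 4 and 6, 6 and 6, and 3 and 5 for ATF1. For CREB1 they were 1 and 4, 3 and 5, and 0 and 6. Whether saturation bears on these differences was not tested. The fifth, CCCCGGCC, is carried by 2 probes.

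At the main sites no difference between the proteins passed the test, and the intervals are wide. For TGACGTCA the difference was 43.96 (95% interval 9.15 to 78.8, adjusted p = 0.613), for TACGCAAT -30.82 (-77.9 to 16.3, adjusted p = 0.776) and for TGACGCAA -5.51 (-38.2 to 27.2, adjusted p = 0.96). CREB1 went the same way as ATF1 at TGACGTCA, from a mean of 164.7 to 22.8, and at TACGCAAT, from 24.1 to 80.4. The CREB1 arrays carry much of that width. Without the first unmodified CREB1 array 1362 8-mers passed, without the second 52, and without the second CREB1 5mC array 436, so the count of 5 rests on which arrays are included.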

How the data were processed

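Per the file headers, the authors deposited each probe's median intensity and the background around it, on a linear scale, and 1 z-score per 8-mer and array. How that score was computed is not given in the sources at hand. The deposited score of an 8-mer followed the median signal of probes with the 8-mer on the copied strand (Spearman rho 0.961 to 0.969 over the 4 arrays) more than that of probes with it on the printed strand (0.128 to 0.418), so 8-mers are written as they read on the modified strand. Of 65530 8-mers with a score, 409 without a probe on that strand were left out, and no ATF1 value was missing. Signals of 65500 or more counted as saturated.

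The test was limma 3.58.1 in R 4.3.3 (lmFit and eBayes with a mean-variance trend, two-sided, Benjamini-Hochberg over all features) on the z-scores of the 6 ATF1 arrays with 1 mean per group. It was also run on simulated scores drawn independently for each 8-mer, which cannot show how it behaves on 8-mers that share probes. "Higher", "lower", "rose" and "fell" mean an adjusted p under 0.05. Strand differences were fitted on the z-score of an 8-mer minus that of its reverse complement, the comparison with CREB1 on the 8 arrays of both proteins, and probes on log2 signal after normexp correction (offset 50), centred on the array median. Python 3.11.15 and matplotlib 3.10.9 did the rest.

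An 8-mer joined the first list whose motif it held on either strand. The 8-mers named were 12 key sites with their reverse complements, the 24 single-base changes of the CRE, the 10 largest rises and falls that passed the test without overlap among 8-mers on at least 10 probes, the 5 highest of each group, and up to 3 strand pairs per list; other members of the chimera, palindrome and CpG-free lists were named after their values were seen. The comparison, lists and key sites were chosen with earlier results of these data known. Alternatives covered the moderation, the arrays in the fit, the scale, saturated probes and each array left out. The depth of an array reading has no counting error, and the number of arrays limits the precision.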

Additional observations from a re-analysis of the deposited data

Results flagged for a closer look

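Results in which the change with 5mC differed between ATF1 and CREB1 by a test of the difference itself were looked at again. There were 5 such 8-mers of 65121 (limma, adjusted p under 0.05). Among them were TATGACGT (difference 43.67, adjusted p = 0.0129) and the key site TGACGTGG, where the fall was smaller in ATF1 by 58.47 on the z-score scale (SE 8.12, 95% interval 41.3 to 75.6, adjusted p = 0.0229). Its values were 58.5 and 62.9 on unmodified DNA and 5.71 and 5.29 on 5mC for ATF1, and 129 and 116 against 10.0 and 7.85 for CREB1. Saturated probes at TGACGTGG on unmodified DNA were 1 and 2 for ATF1 and 0 and 1 for CREB1. At TATGACGT they were 3 and 5 for ATF1 and 0 and 6 for CREB1. No group of arrays was large enough for a check of single outlying arrays.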

How the results depend on the processing

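The count of 5124 changed 8-mers became 8780 with the 4 arrays alone, 2118 with all 18 arrays and 3019 after quantile normalization, and 2062 to 2370 without any 1 array. For the named 8-mers, 51 of 57 were called, and 27 with all 18 arrays. The 1770 strand pairs became 554 on the inverse hyperbolic sine scale and 594 to 764 without any 1 array. The 5 differences from CREB1 became 123 without the trend, 2 on the inverse hyperbolic sine scale, and 1 to 1362 without any 1 array. The 6160 changed probes became 2337 with local background subtracted, 1627 after quantile normalization and 2571 to 3465 without any 1 array. The mean count of bound 8-mers, 1940 on unmodified DNA and 794 on 5mC, was 3066 and 1697 at a z-score of 3 and 974.5 and 282 at 6. Fewer arrays or another spread enter these fits by construction, and for the other changes the cause was not tested.

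Among the named 8-mers the direction turned at TGACGCAA and TGAAGTCA, neither called with the settings of the report. TGACGCAA was -4.86 and became 44.1 after quantile normalization, 0.47 on the log2 scale without saturated probes and -11.84 to 2.12 without any 1 array (2.12 without the first unmodified array). TGAAGTCA was 0.40 and became -0.0029 on the log2 scale with or without saturated probes and -0.45 to 1.26 without any 1 array (-0.45 without the first 5mC array). The cause was not tested.

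Replicate numbers are shared by the groups, but their deviations did not go together (r = -0.0503 between same-numbered arrays), so the numbers do not pair the arrays. With the replicate number as a block 5687 8-mers, 1939 strand pairs, 8 differences from CREB1 and 6201 probes passed, and no named 8-mer changed its call. Signal over background of 3.22 to 7.46 and saturation at the top limit the range in which a change can be read.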
